A study of Mus musculus with 6 samples.

Results

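The zinc finger protein genes of the Zfp series were described across 6 bead arrays of mouse embryonic fibroblasts, connective tissue cells grown from mouse embryos. Members were all array rows whose symbol is Zfp followed by 2 or 3 digits, with Zfp36, an mRNA decay factor of another zinc finger class, left out. That rule took 323 of 25697 probes, which stand for 233 of 17913 genes. It uses only the symbol. Outside it lie 24 symbols that start with Zfp, any row of Zfp36 among them, and the others carry a letter, a suffix or fewer digits. Of the 233 genes, 21 carry another symbol today, for example Zbtb18 for Zfp238, Zpr1 for Zfp259 and Rnf114 for Zfp313. The study compared cells with a short or a long NELF-B protein, part of a complex that pauses RNA polymerase II soon after it leaves a promoter. In 3 samples NELF-B was truncated (ATG-NELF-B in the labels), and in 3 it was full length (FL-NELF-B). All cells had the C57BL/6 background and were taken at 50% confluence from medium with 10% FBS. The labels do not say how each form was introduced, whether a form stands for 1 clone, or whether its 3 samples came from separate cultures. P-values therefore measure only how far these samples vary, and that variation may be technical.

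Zinc finger proteins of the C2H2 class hold short repeats in which a zinc ion, gripped by cysteine and histidine pairs, folds a small domain that reads DNA or binds RNA and protein. Many mammalian members also carry a KRAB domain, which recruits the corepressor Trim28 and the histone methyltransferase Setdb1 to silence retroelements and some genes. Others work as activators, as mitotic or ribosome assembly factors, or as ubiquitin ligases. Genes for KRAB members often lie side by side in clusters of related copies, and their transcripts are commonly present at low levels.

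Zfp367, Zfp382 and Zfp592 were the only members past the test, each higher with truncated NELF-B. Zfp382 entered the test only through the truncated arrays on which it was high, so its call is a description. The 250 bases before the annotated start of each are shown as a description. They lie upstream of the stretch where NELF pauses the polymerase, soon after it leaves the promoter. They come from RefSeq on build GRCm38.p6, and for Zfp367 the farther upstream of 2 annotated starts was taken. Capitals mark matches, on either strand, to the CCAAT box of NF-Y, the GGGCGG box of Sp and KLF factors, the ETS motif CCGGAAG, the loose E2F motif TTTNNCGC, the CREB motif TGACGTCA and the TATA box TATAAA.
Zfp367, chr13:64153200-64153449, minus strand: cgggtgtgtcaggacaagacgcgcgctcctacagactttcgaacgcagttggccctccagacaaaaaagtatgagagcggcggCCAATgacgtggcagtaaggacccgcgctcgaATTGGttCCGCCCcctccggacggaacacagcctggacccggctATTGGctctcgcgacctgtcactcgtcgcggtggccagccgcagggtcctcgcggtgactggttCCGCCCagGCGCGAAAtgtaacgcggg
Zfp382, chr7:30121682-30121931, plus strand: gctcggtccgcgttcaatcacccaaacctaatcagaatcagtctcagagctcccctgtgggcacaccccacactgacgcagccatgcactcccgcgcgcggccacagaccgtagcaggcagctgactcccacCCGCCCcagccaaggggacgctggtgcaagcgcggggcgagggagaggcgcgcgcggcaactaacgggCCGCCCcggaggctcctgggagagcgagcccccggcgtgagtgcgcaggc
Zfp592, chr7:80993434-80993683, plus strand: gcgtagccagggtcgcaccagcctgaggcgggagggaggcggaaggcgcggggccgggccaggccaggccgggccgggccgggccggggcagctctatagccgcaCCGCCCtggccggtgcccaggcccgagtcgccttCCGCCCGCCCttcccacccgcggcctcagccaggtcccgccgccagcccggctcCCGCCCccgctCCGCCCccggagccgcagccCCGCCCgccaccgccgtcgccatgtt
The Zfp367 window held 3 CCAAT boxes along with 2 GGGCGG boxes and 1 match to TTTNNCGC. The window of its other start, not printed, held no CCAAT box, 4 GGGCGG boxes, 1 TTTNNCGC and 1 TGACGTCA. The Zfp382 and Zfp592 windows held GGGCGG, 2 and 6 times, and none of the other motifs. Their GC contents were 64%, 70% and 81.6%. Over all 32851 windows of the same length, 33.8% held CCAAT, 32.7% held GGGCGG and 4.28% held TTTNNCGC. Over the 151 windows of tested Zfp genes the shares were 42.4%, 45.0% and 9.93%. The set of all windows includes genes not tested here, so the gap does not mark tested Zfp promoters as rich in a motif. A match describes the letters and is not a measured binding site.

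Zfp probes were above background more often than all probes on every array. The members later tested were dimmer than all genes tested, with a median mean log2 intensity of 7.08 against 8.25. On the truncated arrays 168, 166 and 190 of the 323 probes were above background at a detection p under 0.05, or 52.0%, 51.4% and 58.8%. On the full-length arrays the numbers were 189, 183 and 181, or 58.5%, 56.7% and 56.0%. Truncated replicate 3 lay above every full-length array, and the other truncated arrays lay below all of them. The truncated arrays averaged 54.1% ± 4.12 (SD, n = 3) and the full-length arrays 57.1% ± 1.29 (SD, n = 3), a difference of -2.99 percentage points (two-sided exact permutation p = 0.4, where 0.1 is the smallest that 3 against 3 arrays allow). Over all probes the share was 46.4% to 48.7%. Without truncated replicate 3 the difference in Zfp probes was -5.37 percentage points. Its exact permutation p of 0.2 is the smallest that the remaining arrays allow, so it cannot decide whether the forms differ.

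**Figure D1:**
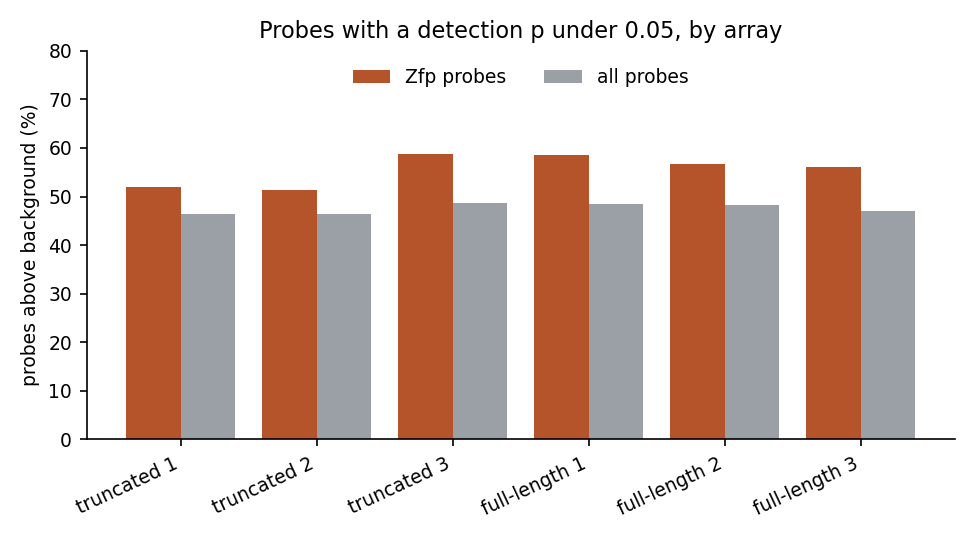
Percent of probes above background (detection p under 0.05) on each array, for the 323 Zfp probes (brown bars) and for all 25697 probes (grey bars), with 1 bar per array and no error bar. Zfp probes lie between 51.4% and 58.8% and all probes between 46.4% and 48.7%.

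Most Zfp probes were either above background everywhere or nowhere. Of the 323, 148 (45.8%) were above background on all 6 arrays and 107 (33.1%) on none, against 41.5% and 43.7% of all probes. The 68 between them changed side from array to array. By gene, 121 had some probe above background on all 6 arrays, 65 on none and 47 on 1 to 5 arrays. The genes with no signal above background included Zfp42, the pluripotency marker also called Rex1, Zfp423, a regulator of preadipocyte commitment, Zfp568, a KRAB repressor of placental Igf2 transcripts, and Zfp819. A probe below background bounds the signal and does not show that the transcript was absent. In bulk RNA, fewer cells with a transcript and less of it per cell cannot be told apart.

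The cells had the markers of their labelled type. Of 11 fibroblast markers on the arrays, 10 were above background on all 6, among them Col1a1, Col3a1, Pdgfra and Vim, and Thy1 on none. The endothelial markers Pecam1 and Cdh5, the epithelial marker Krt5 and the pluripotency markers Utf1 and Dppa3 were above background on no array, while Pou5f1 and Cd68, a macrophage marker, were above it on all 6. None of the 10 tested fibroblast markers passed the test, and 8 of them had values below 0, with the lowest that of Col3a1, at -0.66 ± 0.15. The part of the marker differences in the Zfp values was not tested.

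Of the 233 Zfp genes, 144 had a probe above background on at least 3 arrays and were tested between the forms, with log2 fold changes as truncated over full-length, each with its standard error (SE) and 3 arrays per form. Of the 144, 3 rose, none fell and 141 did not pass at an adjusted p under 0.05 (limma, Benjamini-Hochberg over all genes), which is 2.08% of the members against 1.6% of all 8990 genes tested. All 3 calls were increases, a direction in which 0.512% of all genes were called. Of the 3, Zfp382 entered the test only through the truncated arrays on which it was high. Its call therefore supports nothing about the members, and both the 2.08% and the count of increases include it. At an unadjusted p under 0.05 there were 21 members, 7 higher and 14 lower, or 14.6% against 20.1% of all genes. For 23 members, 7 higher and 16 lower, the values of the 2 forms shared no range, which is 16% against 25.7% of all genes. For 141 members (97.9%) the 95% confidence interval lay wholly within 2-fold either way, and for 109 (75.7%) within 1.5-fold, against 97.1% and 69.9% of all genes. For dim probes these intervals limit the fold as measured, which the offset of 16 added before the logarithm makes smaller than the change in RNA.

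**Figure D2:**
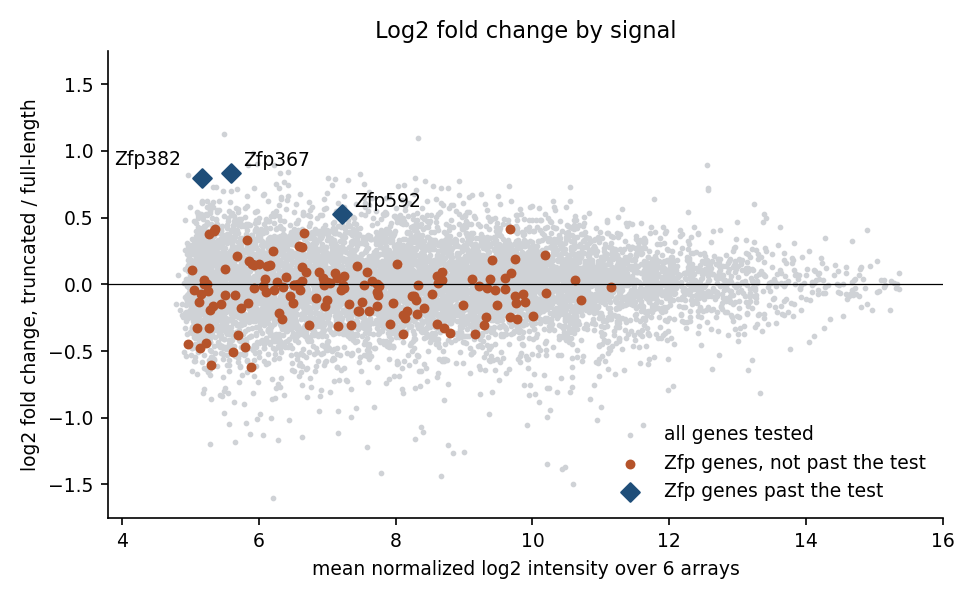
Log2 fold change, truncated over full-length, against the mean normalized log2 intensity over 6 arrays, 1 point per gene, for all 8990 genes tested (grey), the Zfp genes that did not pass (brown) and the 3 that did (blue diamonds). The Zfp genes run from -0.62 to 0.84 and end at a mean intensity of 11.1, while all genes reach 15.4.

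Zfp367, known from human erythroid cells as the globin gene activator ZFF29, had the highest fitted fold change among the members, a rank that is not settled against Zfp382, whose fold is only a lower bound. Its probe read 6.12, 6.06 and 5.85 on truncated replicates 1 to 3 and 4.90, 5.41 and 5.21 on full-length replicates 1 to 3, as normalized log2 intensity. Every truncated value exceeded every full-length value. The log2 fold change was 0.84 ± 0.15 (95% interval 0.50 to 1.17, adjusted p = 0.0405), a 1.79-fold difference. In the deposited intensities the probe stood at 174 to 184 with the truncated form and at 149 to 167 with the full-length form, where the dimmest probe above background on an array reads 147 to 154. Its probe was above background on 3 truncated and 2 full-length arrays. A further Zfp367 probe was above background on 1 array and gave -0.12 ± 0.14.

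Zfp382, a KRAB zinc finger repressor, was above background only with the truncated form. Its normalized log2 intensity was 5.74, 5.37 and 5.57 with the truncated form and 4.73, 4.89 and 4.67 with the full-length form, and the groups did not overlap. Since no full-length array measured it, the difference is a bound, at least 1.43-fold higher with the truncated form. The limma fit gave an adjusted p of 0.0346, but the gene entered that fit only because it was detected on the truncated arrays, so this p is a description. That bound divides the truncated mean by the detection limit of the full-length arrays, taken on each as its dimmest detected probe. In the same way, Zfp61 was included through the full-length arrays alone.

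Zfp592, whose human protein joins ZNF687, ZNF532 and ZMYND8 in a zinc finger complex on chromatin, was the brightest of the 3 and above background on all 6 arrays. It read 7.50, 7.46 and 7.46 with the truncated form and 7.02, 6.95 and 6.86 with the full-length form. The truncated arrays spanned less than 0.05 and lay clear of the full-length ones. The log2 fold change was 0.53 ± 0.10 (95% interval 0.30 to 0.76, adjusted p = 0.0487), or 1.44-fold. Zfp532, its relative in that complex, stood at -0.24 ± 0.10 with no overlap between the forms and did not pass (adjusted p = 0.230), and Zfp687 was above background on 1 array and not tested.

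The calls rest on the full set of arrays. Over all genes tested, truncated replicate 3 correlated at 0.9913 and 0.9917 with truncated replicates 1 and 2. With full-length replicates 1 to 3 it correlated at 0.9919, 0.9927 and 0.9884. It was thus no closer to its own form than to full-length replicates 1 and 2, and the cause was not tested. Without truncated replicate 1 or 2, or any 1 of the full-length replicates, no Zfp gene passed, with 13 to 22 members at an unadjusted p under 0.05, and without truncated replicate 3 Zfp367 and Zfp286 passed. The fold changes moved less, from 0.70 to 0.94 for Zfp367 and from 0.49 to 0.57 for Zfp592 over the 6 refits. Zfp382 was not tested when any truncated array was left out. With no background correction they were 0.25, 0.22 and 0.29, and with median scaling Zfp592 had an adjusted p of 0.140.

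No Zfp gene fell past the test in the fit reported here. The lowest value was that of Zfp386, at 5.24, 5.76 and 5.73 with the truncated form and 6.21, 6.02 and 6.35 with the full-length form. The groups did not overlap, and the log2 fold change was -0.62 ± 0.16 (adjusted p = 0.0924). Its other tested probe gave 0.0021 ± 0.22. Zfp11 read 5.23, 4.93 and 4.83 against 5.69, 5.65 and 5.47, for a log2 fold change of -0.61 ± 0.13 (adjusted p = 0.0630). It passed in 1 alternative fit, with array weights (adjusted p = 0.0372), and its adjusted p in the others ran from 0.0614 to 0.204. It was above background on 1 truncated and 3 full-length arrays, so its truncated values lie at the detection limit. Zfp449 (-0.47 ± 0.14) was above background on all 6 arrays and also showed no overlap. Zfp61 was above background on the 3 full-length arrays only and did not pass (limma adjusted p = 0.134). Its full-length mean lay 1.08-fold above the detection limit of the truncated arrays. Full-length replicate 2, at 5.04, lay below that limit of 5.08, so no smallest decrease can be given. Zfp286 (-0.48 ± 0.17), Zfp560 (-0.51 ± 0.35), Zfp647 (-0.44 ± 0.22) and Zfp62 (-0.38 ± 0.20) had overlapping groups.

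Among the 8 highest values, the 5 that did not pass ran from 0.38 to 0.41. Zfp131, a protein with a BTB domain before its zinc fingers, read 9.85, 9.71 and 10.06 with the truncated form and 9.53, 9.70 and 9.16 with the full-length form. Its lowest truncated value lay just above its highest full-length value, and the log2 fold change was 0.41 ± 0.16 (adjusted p = 0.195). Zfp593, related to the yeast ribosome assembly factor Bud20, read 5.33, 5.80 and 5.49 against 5.08, 5.10 and 5.23, a log2 fold change of 0.40 ± 0.14 (adjusted p = 0.156) with no overlap. Zfp825 (0.41 ± 0.19), Zfp607a (0.38 ± 0.17) and Zfp324 (0.38 ± 0.21) overlapped between the forms.

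**Figure D3:**
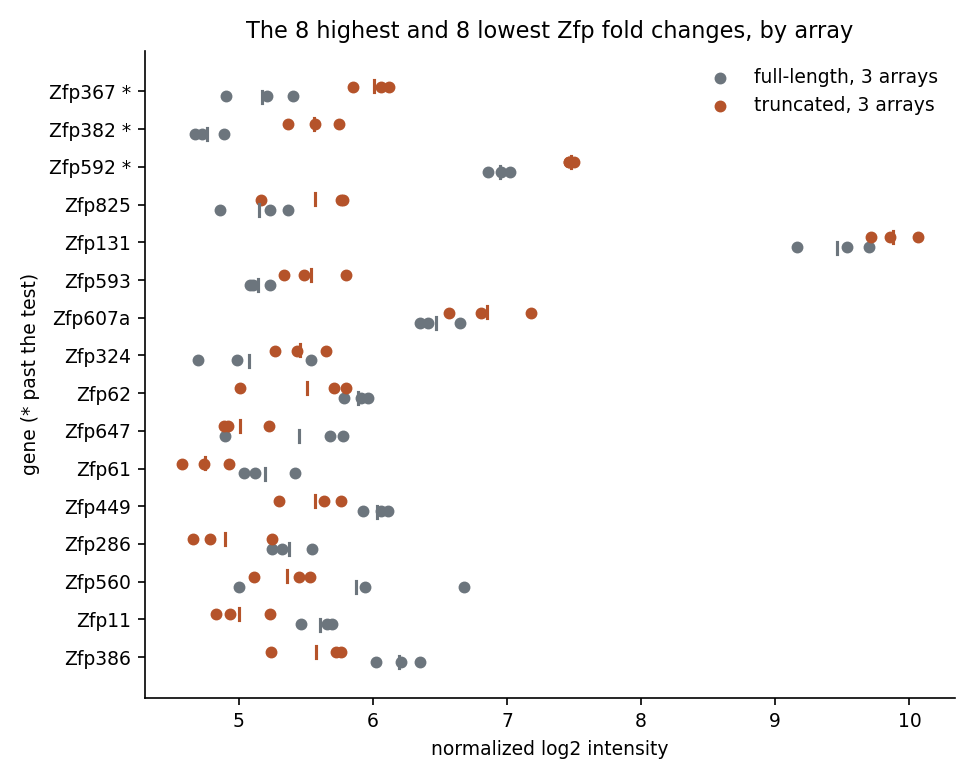
Normalized log2 intensity of each array (points) and the mean of 3 arrays (vertical ticks) for the 8 Zfp genes with the highest and the 8 with the lowest log2 fold change, truncated in brown and full-length in grey, with an asterisk on the 3 past the test. Most of these genes sit between 4.6 and 6.4, near the detection limit of about 5.0 to 5.1, and Zfp592, Zfp607a and Zfp131 lie higher.

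The members as a group leaned slightly below 0. Of the 144, 88 (61.1%) had values below 0 against 48.3% of all genes tested, and the median log2 fold change was -0.04, with quartiles of -0.17 and 0.05, against a median of 0.01 for all genes. Among the 121 members whose probe was above background on all 6 arrays, 73 (60.3%) were below 0, with a median of -0.03. Over all 233 genes with no filter the median was -0.01. Arrays of one form differed in the median Zfp value with an SD of 0.05, about the size of this lean. That median, centred on each gene's mean, was -0.04, -0.08 and 0.04 on truncated replicates 1 to 3 and 0.07, 0.06 and -0.01 on full-length replicates 1 to 3, so truncated replicate 3 lay above full-length replicate 3. Without truncated replicate 3 the median log2 fold change was -0.09. The number of Zfp probes above background followed the same order of arrays at its lower end, with both other truncated arrays lowest, and its part in the lean was not tested.

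Spread between arrays followed the signal. The residual SD within forms had a median of 0.186 over the tested Zfp genes and of 0.159 over all genes. When all tested genes were split by mean signal into 3 bins of equal size, 72 Zfp genes (50%) fell in the dimmest bin, 52 in the middle and 20 in the brightest. Within those bins the median residual SD of the Zfp genes was 0.240, 0.165 and 0.117, against 0.237, 0.154 and 0.116 for all genes. The median SE of a Zfp fold change was 0.14. Zfp629, Zfp790 and Zfp532 varied least and Zfp560, Zfp667 and Zfp709 most. Zfp560 read 5.94, 6.68 and 5.0 on the full-length arrays, a wider range than the difference between the forms, and Zfp667 read 4.61, 5.03 and 6.01 on the truncated arrays.

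**Figure D4:**
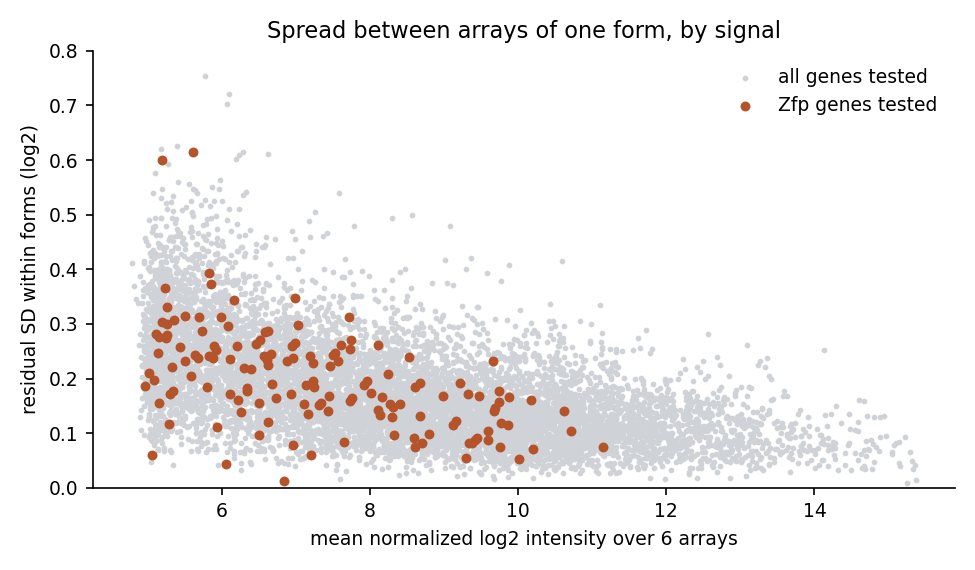
Residual SD within forms, on the log2 scale, against the mean normalized log2 intensity, 1 point per gene, for all genes tested (grey) and the 144 Zfp genes (brown). The Zfp genes follow the fall of the spread with signal, and Zfp560 and Zfp667 stand highest among them, near 0.6.

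Where a gene had several probes, they often differed in sign. Of 33 Zfp genes with more than 1 tested probe, 18 had probes on opposite sides of 0. The median gap between the highest and lowest probe was 0.16, and 3 had a gap over 0.5. That gap is near the median SE of a Zfp fold change, 0.14, and the share was not computed over all genes. Zfp317 had its brightest probe at -0.29 ± 0.09 and its other probes at 0.34 ± 0.12 and 0.37 ± 0.12, all 3 above background on all 6 arrays. The brightest of them read 399, 444 and 537 against 556, 604 and 522 in deposited intensity, and the next 186, 201 and 237 against 195, 201 and 187. Zfp68 had probes at 0.10 ± 0.16 and 0.12 ± 0.14 and another at -0.81 ± 0.14, which was above background on 1 truncated and 3 full-length arrays. Zbtb21, named Zfp295 on the array, had probes at -0.20 ± 0.12 and 0.26 ± 0.20. Where in a transcript each probe binds is not in the files used here, and members with near-identical copies may share signal.

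**Figure D5:**
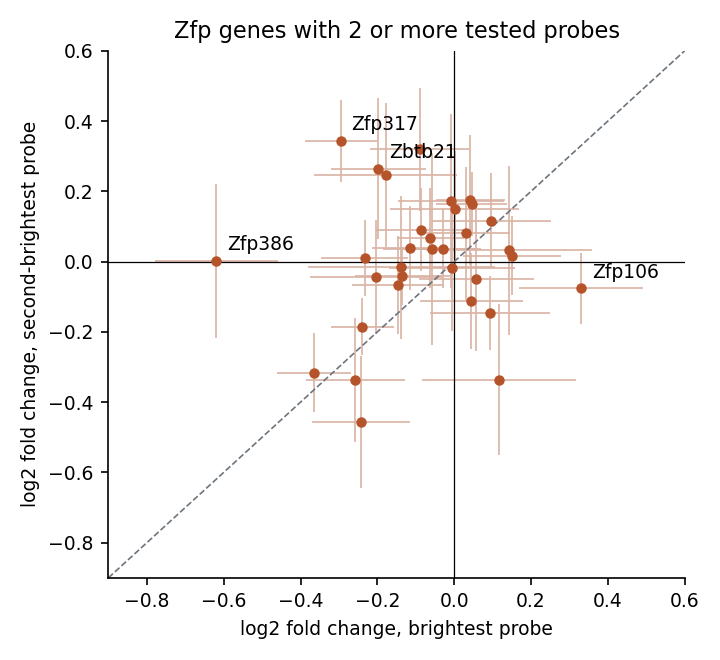
Log2 fold change of the second-brightest tested probe against that of the brightest, with bars of 1 SE, for the 33 Zfp genes with 2 or more tested probes. The dashed line marks equal values, and Zfp317 and Zbtb21 lie in the quadrant of opposite signs. The lowest Zfp68 probe is its dimmest and is not plotted.

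The members were also listed by role, and no list was tested as a group. Since 1.6% of all genes passed, lists this short would hold few or no calls at that share. Most of the genes named from them were picked by smallest p. Of 9 tested Zfp genes for promoter-bound regulators, Zfp592 rose and 8 did not pass, with a median of -0.0088. Among the 8, Zfp148, known as ZBP-89, stood at -0.37 ± 0.17 and Zfp143, an activator of small nuclear RNA genes, at -0.0088 ± 0.18. Of 6 tested genes tied to mitosis, replication or repair, Zfp367 rose and 5 did not pass, with Zfp207, a kinetochore factor that loads Bub3, at 0.19 ± 0.13, Zfp365 at 0.25 ± 0.17 and Zfp451, a SUMO ligase, at -0.20 ± 0.13. None of 9 genes for RNA binding and ribosome assembly passed (median 0.0054), with Zfp106 at 0.33 ± 0.16, Zpr1 at 0.22 ± 0.13 and the nucleolar protein gene Zfp330 at -0.14 ± 0.13.

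All 5 tested genes of the adipocyte, bone and mesenchyme list had values below 0 and none passed. Values below 0 were held by 61.1% of the tested members and 48.3% of all genes. Zfp521, which antagonises Ebf1 and Runx2 in fat and bone precursors, was the furthest, at 8.98, 8.86 and 9.09 with the truncated form and 9.21, 9.47 and 9.36 with the full-length form. Its groups did not overlap, and the log2 fold change was -0.37 ± 0.12 (adjusted p = 0.132). It passed in 3 alternative fits, with no background correction, with the deposited processed values, and with a variance trend and robust eBayes. Zfp318 stood at -0.22 ± 0.13, Zfp467 at -0.08 ± 0.18 and Zfp219 at -0.01 ± 0.13, both of these with signs that turned when single arrays were left out. Of the list of pluripotency, imprinting and retroelement genes, 4 of 9 were tested and none passed: Zfp281, a repressor of Nanog, was at -0.18 ± 0.13, Zfp57, which guards imprints, at -0.12 ± 0.17, Zfp296 at -0.05 ± 0.10 and Zfp809, which silences retroviral DNA, at -0.04 ± 0.13. None of 5 tested genes of the ubiquitin, SUMO and NF-kB signalling list passed. Zfp91 was at 0.04 ± 0.12, Zfp128 at -0.05 ± 0.18 and Rnf114, named Zfp313 on the array, at -0.0060 ± 0.17.

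The machinery that KRAB members recruit was listed too. None of its 25 tested genes passed, where 1.6% of all genes did, so the count says nothing particular about this list. Of the 25, 16 had values above 0, against 4649 of all 8990 genes, and the median was 0.07. At an unadjusted p under 0.05 (limma) there were 6 of the 25, against 20.1% of all genes. Trim28 stood at 0.13 ± 0.11 (adjusted p = 0.584) and Setdb1 at 0.18 ± 0.12 (adjusted p = 0.439). The smallest p-values were those of the histone methyltransferase Suv39h1 (0.42 ± 0.10, adjusted p = 0.0789), Uhrf1, which guides maintenance methylation (0.47 ± 0.14, adjusted p = 0.115), and the DNA methyltransferases Dnmt3b (-0.32 ± 0.12) and Dnmt1 (0.30 ± 0.12). Uhrf1 passed in 4 alternative fits (no background correction, an offset of 50, the deposited processed values, and a variance trend with robust eBayes), and Suv39h1 passed in 1, with array weights (0.45, adjusted p = 0.0435).

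Genomic neighbours and promoter sequence were also set against detection. Of the 232 members that the RefSeq table of GRCm38.p6 lists as protein-coding, 104 lie next to another Zfp gene. Of these 104, 61 (58.7%) were tested, against 83 of 128 (64.8%) of the rest, and the median log2 fold changes of those tested were -0.03 and -0.05. Zfp382 and Zfp61 lie next to another Zfp gene, and Zfp367 and Zfp592 do not. Of the 233 genes 190 (81.5%) had a promoter window in the RefSeq table. Tested members had CCAAT in 64 of 151 windows (42.4%) and untested members in 26 of 91 (28.6%), while GGGCGG was in 45.0% and 41.8%. The median GC content was 56.4% and 55.6%. These are descriptions with no test.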

How the data were processed

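RNA of 6 fibroblast samples was measured on Illumina bead arrays after biotin amplification, per the labels' protocols, and titles gave the groups. A deposited table holds, per the file headers, a non-normalized signal intensity and a detection p-value per probe and array. The submitters' processing notes name GenomeStudio. The lowest deposited intensity was 103, so no background had been subtracted, and the p-values run in steps of 1 in 798. The deposited series matrix holds processed intensities on a linear scale, with near-equal column medians, whose processing is not stated, and served as an alternative. No column was left unused (0 columns). The number of arrays limits the precision. The labels name no chip or scan date.

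Probes were named by RefSeq accession against GRCm38.p6 (311 Zfp probes), current symbol (9) or unique synonym (3). Using limma 3.58.1 in R 4.3.3, intensities were corrected by normexp with control levels inferred from the detection p-values, raised by an offset of 16, brought to 1 common distribution by quantiles and expressed as log2. Probes with detection p under 0.05 on at least 3 of 6 arrays were kept, each gene was stood for by its brightest probe (for 4 members a probe listed under another symbol), and 8990 genes were fitted with lmFit and eBayes on 2 group means. Tests were two-sided, at an adjusted p of 0.05. Fold changes of single probes come from a fit of all probes. Simulated data (10 sets, 200 changed genes each) were used to test the fit.

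Members and lists were chosen with earlier results of these data known. Named genes are those past the test, the 8 highest and 8 lowest, those above background with 1 form only, the 3 with the smallest and the 3 with the largest residual SD, up to 4 per list by smallest p, up to 4 with probes of opposite sign, Trim28 and Setdb1. Zfp449, Zfp687, Zfp143 and the undetected members were added after their values were seen. Figures were drawn with matplotlib 3.10.9.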

Additional observations from a re-analysis of the deposited data

How the results depend on the processing

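The count of 3 Zfp genes past the test was 1 with probes above background on all 6 arrays (Zfp592, since Zfp367 and Zfp382 were then not tested) and 1 with median scaling (Zfp382). It was 0 with no filter (26 at an unadjusted p under 0.05, limma), 0 with the replicate number as a block (18 unadjusted) and 0 to 2 with each array left out. Under the other 8 alternatives it was 2 to 4. Genes that passed as lower in some of these were Zfp11 (array weights), Zfp521 (3 alternatives) and Zfp286 (without truncated replicate 3). The others were Zfp41 (no background correction and the deposited processed values) and Zfp251 (no background correction). Same-numbered arrays deviated from their group means with correlations of 0.03, -0.16 and -0.14, and differently numbered ones with -0.04 to 0.18. With 3 arrays per form these values cannot decide whether same-numbered arrays were handled together. The median of the Zfp genes was -0.11 with median scaling, where that of all genes was -0.05, and -0.095 to -0.029 with each array left out, below 0 under all 18 alternatives. Of 825 values of the 48 named genes, 26 changed sign, in 13 genes, none of them above 0.29 in size. With the probes of a gene averaged, Zfp317 was 0.14, Zfp68 -0.20 and Zbtb21 0.034. With array weights Zfp667 was -0.15 and Zfp128 0.0053, and with median scaling Zfp91 was -0.027 and Zfp68 -0.0030. With each array left out, values ran from -0.11 to 0.15 for Rnf114, -0.22 to 0.14 for Zfp128, -0.11 to 0.089 for Zfp219, -0.25 to 0.13 for Zfp467, -0.26 to 0.026 for Zfp57, -0.19 to 0.34 for Zfp667, -0.039 to 0.26 for Zfp68, -0.31 to 0.14 for Zfp709, -0.035 to 0.019 for Zfp790, -0.088 to 0.057 for Zfp809 and -0.019 to 0.12 for Zfp91. The cause was not tested. The difference in Zfp probes above background stayed below 0 under its 8 alternatives, from -5.37 to -1.55 percentage points. Signal over background limits the 23 tested members that were not above it on all 6 arrays and the 89 that were not tested.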
